A study of Mus musculus with 30 samples.

Results

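Ornithine, putrescine, spermidine and spermine form a short pathway of small positively charged metabolites, the polyamines, and the genes of its enzymes and regulators were followed here through the loss of Rb and Myc in the mouse small intestine. The list held 9 genes, Odc1, Srm, Sms, Amd1, Sat1, Oaz1, Oaz2, Azin1 and Smox. They were chosen by name as genes of polyamine metabolism, with earlier results of these data known. A gene was read from probe sets, the groups of probes that report 1 transcript, and only from those that the platform annotation assigns to that gene alone. Of the 9 genes 7 had such a probe set, out of 18194 genes in all, and all 7 lay above the filter on low values, as did 14548 genes in total. Each of the 3 probe sets of Sms is also assigned to a pseudogene, and no probe set carried the name Amd1, so spermine synthase and S-adenosylmethionine decarboxylase were not analysed here.

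Polyamines bind nucleic acids and are needed for growth, and dividing cells make more of them. Odc1, ornithine decarboxylase, makes putrescine from ornithine and is a textbook direct target of the transcription factor Myc. Srm, spermidine synthase, turns putrescine into spermidine with a propylamine group that Amd1 supplies, and Sms goes on to spermine. Sat1 acetylates spermidine and spermine and so opens their breakdown and export, and Smox, spermine oxidase, turns spermine back into spermidine. The antizymes Oaz1 and Oaz2 bind the ornithine decarboxylase protein, send it to the proteasome and restrain polyamine uptake, and Azin1, the antizyme inhibitor, resembles ornithine decarboxylase without its activity and takes antizyme away from it. Much of this control acts on translation and protein stability, which arrays do not read.

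The animals were mice 2 months old, and all groups came from a study that used Ah-cre, an inducible Cre recombinase active in the intestine, with the tissue taken 5 days after deletion. The labels name the genotypes control, Rb KO and Rb/Myc DKO (here DKO) and do not say whether controls carried Cre or received the inducer. Villi, lined by differentiated cells, and crypts, where the cells divide, were profiled separately, with 5 arrays in each of the 6 groups and 30 in all. A villus or crypt preparation holds many cell types, and in it fewer cells of a type and less RNA per cell cannot be told apart. The labels do not say that the 5 samples of a group were separate animals. By Xist both sexes occurred among the samples of each genotype, so no group came from 1 animal, but p-values still speak only of the spread among these samples, part of which may be technical.

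Values are log2 expression levels as deposited, given as mean ± SD with n = 5, and a difference is in log2 units ± SE from limma, a linear model that shares information on the spread across genes. A gene is said to have risen or fallen where limma's adjusted p, after Benjamini and Hochberg over all 14548 genes, was under 0.05, two-sided. The array medians were 6.28 to 6.34 in villi and 6.67 to 6.73 in crypts, so the tissues were taken as normalized apart, and levels were not tested between them. The labels of both tissues went with their markers: 9 of 9 crypt markers had the higher control mean in crypts and 9 of 9 villus enterocyte markers had it in villi. Rb1 fell by 1.46 ± 0.16 in Rb KO villi and fell by 1.68 ± 0.18 in Rb KO crypts. Myc fell by 1.60 ± 0.16 from Rb KO to DKO crypts, from 10.48 ± 0.41 to 8.88 ± 0.13, while in villi, where it was lower, the difference of −0.52 missed the threshold (adjusted p = 0.147).

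In crypts that had lost Rb, the further loss of Myc went with opposite changes at successive steps of polyamine synthesis. Srm fell, while Odc1, the antizyme gene Oaz2 and the antizyme inhibitor gene Azin1 rose. Loss of Rb alone left no member past the threshold in crypts, and in villi it went with a fall of Oaz2. The strength of these results was unequal: the fall of Srm was the largest and held under every alternative run in crypts, while Odc1 rose on 2 of its 3 probe sets.

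The 300 bases around the start site of Odc1 and Oaz2, synthesis and its restraint, are shown because both genes rose with the loss of Myc and Myc is known for binding letters called E-boxes. They are RefSeq sequences of build GRCm38.p6, from 250 bases before to 50 after the start, 5′ to 3′ along the gene, with E-box matches in capitals. The motifs searched were CACGTG and CACGCG on both strands.
Odc1, chr12:17544623-17544922, plus strand: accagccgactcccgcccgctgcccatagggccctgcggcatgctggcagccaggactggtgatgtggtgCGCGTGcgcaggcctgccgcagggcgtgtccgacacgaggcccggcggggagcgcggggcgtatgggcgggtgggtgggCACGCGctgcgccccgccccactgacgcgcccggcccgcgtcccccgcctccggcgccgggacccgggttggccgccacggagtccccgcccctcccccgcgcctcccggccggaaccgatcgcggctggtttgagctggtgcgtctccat
Oaz2, chr9:65676298-65676597, plus strand: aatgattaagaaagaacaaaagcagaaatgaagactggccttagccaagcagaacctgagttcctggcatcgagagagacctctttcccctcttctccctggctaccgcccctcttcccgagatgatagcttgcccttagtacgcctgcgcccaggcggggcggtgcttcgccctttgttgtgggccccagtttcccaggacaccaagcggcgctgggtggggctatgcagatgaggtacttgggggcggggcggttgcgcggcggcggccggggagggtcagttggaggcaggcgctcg
The Odc1 window held CACGCG at 2 places, at position −101 and, on the other strand, at position −180, counted from the start site. The Oaz2 window held no match. Windows were found for 7 of the 9 genes, 8 windows in all since Sms has 2, and besides Odc1 an E-box stood in that of Oaz1 (CACGCG) and in both of Sms (CACGTG in one, CACGCG in the other). No window was found for Srm or Azin1, so their start sites were not searched for any motif. Among all 32851 promoter windows 15.4% held either motif. None of the 8 windows held any of the E2F motifs TTTGGCGC, TTTGCCGC, TTTCGCGC and TTTCCCGC, and 2.26% of all windows did. A match is a description of these letters and does not show binding.

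Odc1, the first step of synthesis, was high in both tissues. On the 5 arrays of each crypt group it stood at 12.35, 12.32, 12.40, 12.37 and 12.25 in control, at 12.24, 12.20, 12.26, 12.51 and 12.40 in Rb KO and at 12.49, 12.56, 12.67, 12.52 and 12.55 in DKO. Every DKO array lay above every control array, and 4 of the 5 Rb KO arrays lay below all DKO arrays, the exception being Rb KO 4. Odc1 rose from Rb KO to DKO crypts by 0.23 ± 0.06 (adjusted p = 0.018), which is 1.18-fold, and DKO lay above control by 0.22 ± 0.06 (adjusted p = 0.016), a call lost with the GAPDH reading of RNA integrity as a covariate (0.20, adjusted p = 0.0541). Rb KO and control crypts differed by −0.02 (95% interval −0.14 to 0.11), the smallest step in the order Rb KO, control, DKO.

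The 3 probe sets of Odc1 did not all show this rise. The probe set 1427364_a_at, with its 5 arrays at 9.91 to 10.32 in Rb KO and at 10.36 to 10.71 in DKO crypts, rose by 0.43 ± 0.10 (adjusted p = 0.00818) and its groups did not overlap. The probe set 1437711_x_at, whose suffix marks probes shared with other sequences, stood at 11.52 ± 0.22 in Rb KO and 11.56 ± 0.14 in DKO crypts, a difference of 0.04 (adjusted p = 0.871). Rb KO 4 and 5, the highest Rb KO arrays of Odc1 in both tissues, also had the lowest clock index, a reading of Arntl, Npas2, Nfil3 and Clock against Dbp, Per2, Per3, Tef and Nr1d2. That index was −1.91 and −1.88 in these crypt arrays and 0.12 to 0.85 in Rb KO 1 to 3. With the index as a covariate the rise of Odc1 was 0.30 (adjusted p = 0.00259), and without Rb KO 4 and 5 it was 0.32 (adjusted p = 0.00367). Without Rb KO 2 alone it was 0.21 and lost the call (adjusted p = 0.0511).

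In villi Odc1 was at 11.25, 10.94, 11.12, 11.31 and 10.80 in control, at 11.09, 11.02, 11.24, 11.50 and 11.53 in Rb KO and at 11.23, 11.43, 11.43, 11.68 and 11.57 in DKO. The groups overlapped, and their means rose in the order control, Rb KO, DKO. The neighbours in that order did not differ beyond their spread, Rb KO from control by 0.19 (95% interval −0.07 to 0.45) and DKO from Rb KO by 0.19 (95% interval −0.07 to 0.45). With the GAPDH reading as a covariate the first of these was 0.52 and passed (adjusted p = 0.0194). DKO and control villi differed by 0.39 ± 0.12, past the threshold (adjusted p = 0.0411). The other probe sets did not pass here, at 0.26 for 1427364_a_at (adjusted p = 0.0834) and 0.19 for 1437711_x_at (adjusted p = 0.0971). The call was lost when any one of controls 2, 3 and 5 or DKO 2, 3, 4 and 5 was left out (adjusted p 0.064 to 0.107). A crypt marker score was computed as the mean of the stem and progenitor markers Ascl2, Lgr5, Olfm4, Slc12a2, Smoc2 and the Paneth or secretory markers Ang4, Itln1, Lyz1 and Mmp7, less its average over the tissue. It was −0.390 ± 0.929 in control and 0.329 ± 0.457 in DKO villi. Within the villus groups the deviations of Odc1 went with those of the score at r = 0.740 over 15 arrays, and those of Srm at r = 0.879. With that score as a covariate Odc1 differed by 0.22 (adjusted p = 0.164). Odc1 also went with the clock index (r = −0.670) and the GAPDH reading (r = −0.663), and with these as covariates the difference was larger, 0.63 (adjusted p = 0.0035) and 0.55 (adjusted p = 0.00397). Neither reading overlapped between DKO and control villi, so in these fits reading and genotype cannot be told apart.

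**Figure D1:**
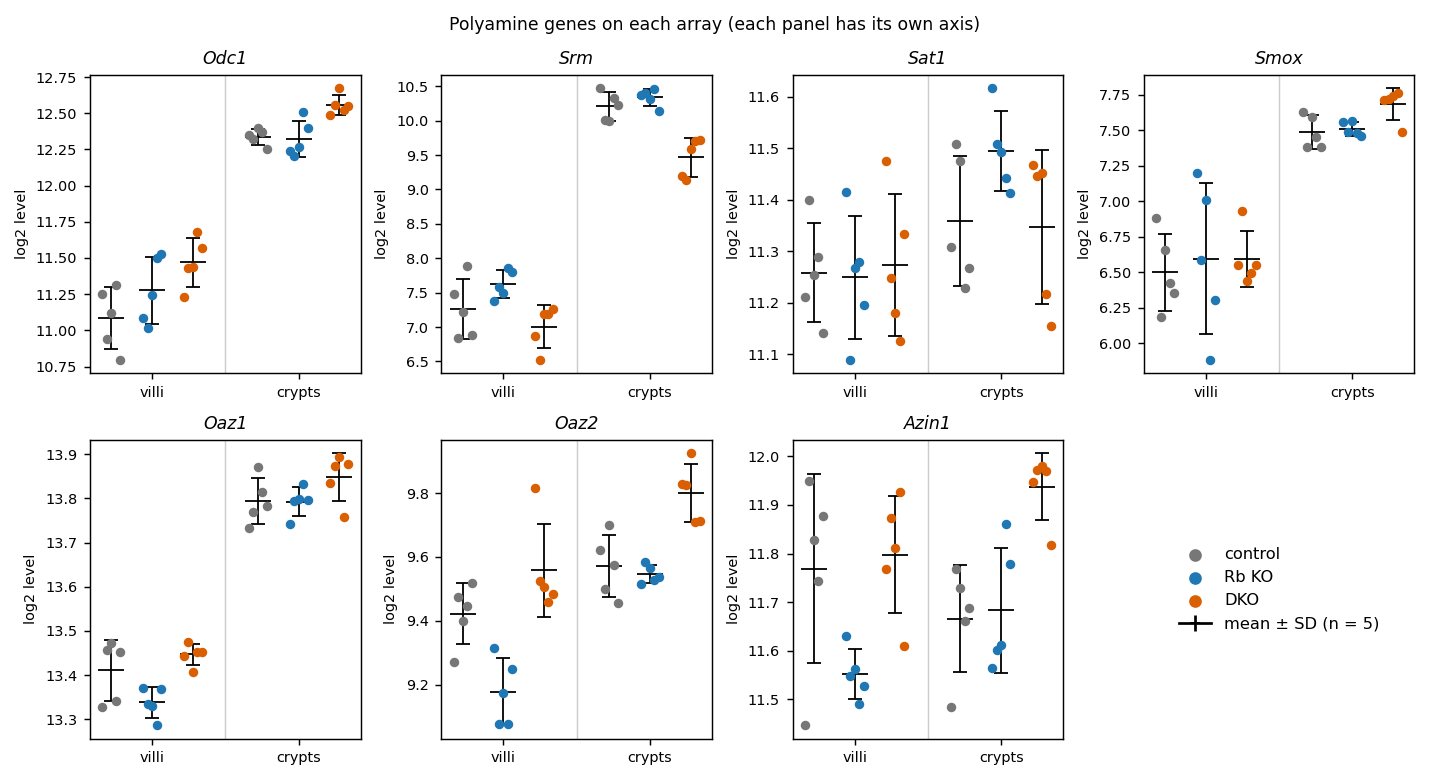
Log2 level of each measured polyamine gene (y axis, a scale of its own in each panel) on every array, for control (grey), Rb KO (blue) and DKO (orange) in villi and crypts, 5 arrays a group with mean ± SD in black. In crypts the DKO arrays of Srm, at 9.14 to 9.71, lie below all others, and those of Oaz2, at 9.71 to 9.92, lie above all others.

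Srm, the enzyme that makes spermidine, showed the largest difference of the list. Its crypt arrays were at 10.47, 10.01, 9.99, 10.33 and 10.23 in control, at 10.37, 10.40, 10.32, 10.46 and 10.15 in Rb KO and at 9.19, 9.14, 9.59, 9.70 and 9.71 in DKO. All 5 DKO arrays lay below all 10 others, as DKO arrays did for Myc. From Rb KO to DKO crypts Srm fell by 0.87 ± 0.12 (adjusted p = 0.000304), a level 1.83-fold lower. DKO was below control by 0.74 ± 0.12 (adjusted p = 0.000487). Rb KO and control crypts differed by 0.13 (95% interval −0.13 to 0.39).

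In villi Srm was lower than in crypts on every array, on scales that were not set to each other. Its values were 7.48, 6.84, 7.22, 7.89 and 6.89 in control, 7.37, 7.58, 7.50, 7.86 and 7.80 in Rb KO and 6.87, 6.52, 7.19, 7.19 and 7.26 in DKO villi. The 5 DKO arrays lay below the 5 Rb KO arrays, while the controls overlapped both. DKO and Rb KO differed by −0.61 ± 0.19, which missed the threshold (adjusted p = 0.0574), and the crypt and villus differences did not differ by the interaction test (−0.26, 95% interval −0.74 to 0.22, adjusted p = 0.567). The villus difference passed with the crypt marker score (−0.73, adjusted p = 0.000408), with sex (−0.69, adjusted p = 0.0191) or with the GAPDH reading of RNA integrity (−0.84, adjusted p = 0.0153) as a covariate. It did not pass with the clock index as a covariate (−0.47, adjusted p = 0.202) or without Rb KO 4 and 5 (−0.47, adjusted p = 0.239). Rb KO and control villi differed by 0.36 (adjusted p = 0.172), and by 0.64 (adjusted p = 0.0084) without controls 1 and 4, which had the highest crypt marker scores of their group and the highest Srm. Controls 1 and 4 were also the only female controls by Xist, so every fit without them kept male controls only. With that score as a covariate it was 0.16 (adjusted p = 0.288), and with the GAPDH reading 0.81 (adjusted p = 0.0257). DKO and control villi differed by −0.26 (adjusted p = 0.371), by −0.57 with the crypt marker score (adjusted p = 0.00196) and by 0.02 without controls 1 and 4 (adjusted p = 0.927).

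Across the 30 arrays, with the mean of each tissue taken off, the genes most like Srm were Pus7 (Pearson r = 0.923), a pseudouridine synthase, Mybbp1a (0.920), a nucleolar protein, Ppan (0.917) and Wdr43 (0.909), both of ribosome biogenesis, and Atic (0.909), of purine synthesis. Myc stood at r = 0.856. The genes most like Odc1 were Osgepl1 (r = 0.854), a mitochondrial tRNA-modifying protein, Depdc1b (0.841), the water channel Aqp4 (0.837), Mrpl42 (0.821), a mitochondrial ribosomal protein, and Mrs2 (0.821), a mitochondrial magnesium channel. Between Odc1 and Srm r was −0.0926, and between Odc1 and Myc −0.330. These values mix genotype shifts with variation within groups. For deviations from group means, Odc1 went with Srm at r = 0.749 in villi and 0.094 in crypts. Odc1 went with Myc at r = 0.447 in villi and −0.472 in crypts. These correlations describe arrays that share their genotype groups and animals and are not tests.

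The breakdown and back-conversion enzymes differed less. Sat1 lay between 11.09 and 11.62 over all 30 arrays, with group means from 11.25 to 11.49, and passed the threshold in none of the 6 comparisons of genotypes. Its widest gap was between Rb KO crypts, at 11.49 ± 0.08, and DKO crypts, at 11.35 ± 0.15 (difference −0.15, 95% interval −0.31 to 0.01, adjusted p = 0.230). Smox was at 7.63, 7.38, 7.60, 7.45 and 7.38 in control crypts, at 7.56, 7.49, 7.56, 7.48 and 7.46 in Rb KO and at 7.71, 7.72, 7.74, 7.76 and 7.49 in DKO. In DKO 4 arrays lay above all control and Rb KO arrays and the fifth, DKO 5, lay among them. Smox rose from control to DKO crypts by 0.20 ± 0.06 (adjusted p = 0.0378), a call lost on leaving out any one of controls 2, 4 and 5 or DKO 1 to 4 (adjusted p 0.072 to 0.0922), with the 2 groups alone (adjusted p = 0.091) and with the crypt marker score (adjusted p = 0.0554) or the clock index (adjusted p = 0.0616) as a covariate. Its difference from Rb KO to DKO was 0.17 (adjusted p = 0.087). Its other probe set, 1446509_at, was dim, with a mean of 3.70 over the arrays, and its difference of DKO from control was −0.04 (adjusted p = 0.783). In villi Smox varied most in Rb KO, from 5.88 to 7.20, and no comparison passed (adjusted p 0.770 to 0.996).

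Of the restraints on ornithine decarboxylase, Oaz1 was the steadiest. Its levels lay between 13.29 and 13.48 in villi and between 13.73 and 13.89 in crypts, and no comparison passed the threshold. The 5 DKO villus arrays, 13.44, 13.48, 13.41, 13.45 and 13.45, lay above the 5 Rb KO arrays, 13.37, 13.33, 13.33, 13.29 and 13.37, by a difference of 0.11 ± 0.05 that missed it (adjusted p = 0.187).

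Oaz2, the second antizyme, passed in 4 of the 6 comparisons. In villi it was at 9.27, 9.47, 9.40, 9.45 and 9.52 in control, at 9.31, 9.08, 9.18, 9.08 and 9.25 in Rb KO and at 9.82, 9.53, 9.51, 9.46 and 9.48 in DKO. Rb KO lay below control except that control 1 fell inside its range, and all DKO arrays lay above all Rb KO arrays. Oaz2 fell in Rb KO villi by 0.24 ± 0.08 (adjusted p = 0.025) and rose from Rb KO to DKO villi by 0.38 ± 0.08 (adjusted p = 0.00978). DKO and control villi differed by 0.14 (adjusted p = 0.245). The fall in Rb KO villi lost its call without control 2 or 5 or Rb KO 2 or 4 (adjusted p 0.0566 to 0.0633), without Rb KO 4 and 5 (adjusted p = 0.0784) and with the GAPDH reading as a covariate (adjusted p = 0.107).

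In crypts Oaz2 was at 9.62, 9.50, 9.70, 9.58 and 9.46 in control, at 9.52, 9.58, 9.57, 9.53 and 9.54 in Rb KO and at 9.83, 9.82, 9.92, 9.71 and 9.71 in DKO. All DKO arrays lay above all others. Oaz2 rose from Rb KO to DKO crypts by 0.25 ± 0.05 (adjusted p = 0.00657), and DKO lay above control by 0.23 ± 0.05 (adjusted p = 0.00729). Rb KO and control crypts differed by −0.03 (95% interval −0.14 to 0.09). A second probe set of Oaz2, 1426764_at, moved the same way: in Rb KO villi it fell by 0.40 ± 0.09 (adjusted p = 0.00422), and from Rb KO to DKO rose by 0.51 ± 0.09 in villi (adjusted p = 0.00565) and by 0.25 ± 0.07 in crypts (adjusted p = 0.0217). The third, 1442541_at, at a mean of 6.94, passed in none of the 6 (adjusted p 0.501 to 0.966). The genes most like Oaz2 were Tpmt (r = 0.862), thiopurine methyltransferase, Tfpi2 (0.841), a protease inhibitor, Dap (0.833), 5031439G07Rik (0.833) and Naaladl1 (0.800), a peptidase.

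Azin1, which frees ornithine decarboxylase from antizyme, was at 11.48, 11.77, 11.73, 11.66 and 11.69 in control crypts, at 11.56, 11.60, 11.61, 11.86 and 11.78 in Rb KO and at 11.95, 11.97, 11.98, 11.97 and 11.82 in DKO. Every DKO array lay above every control array, and Rb KO 4 lay within the DKO range. Azin1 rose from Rb KO to DKO crypts by 0.25 ± 0.07 (adjusted p = 0.0218) and DKO lay above control by 0.27 ± 0.07 (adjusted p = 0.00915). The first call was lost without Rb KO 1, 2 or 3 or DKO 3 (adjusted p 0.0502 to 0.0608) with the GAPDH reading (0.25, adjusted p = 0.0515) and with the mean of all its probe sets (0.23, adjusted p = 0.0702), and the second without controls 1 and 4 (0.21, adjusted p = 0.0589). Its second probe set, 1422702_at, gave a DKO mean in crypts 0.26 above Rb KO (adjusted p = 0.0511) and 0.33 above control (adjusted p = 0.00955). The third, 1430984_at, passed in neither, at 0.18 (adjusted p = 0.289) and 0.26 (adjusted p = 0.0905).

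In villi Azin1 was at 11.45, 11.95, 11.83, 11.74 and 11.88 in control, at 11.63, 11.55, 11.56, 11.49 and 11.53 in Rb KO and at 11.77, 11.87, 11.81, 11.93 and 11.61 in DKO. Control 1 was the lowest of all 15 and the other controls lay above all Rb KO arrays. Rb KO and control differed by −0.22 (adjusted p = 0.0684), by −0.30 (adjusted p = 0.00465) without control 1 and by −0.24 (adjusted p = 0.0351) with sex as a covariate. Control 1 was also the lowest of the 5 control crypts. DKO and Rb KO villi differed by 0.25, which missed the threshold (adjusted p = 0.0914). The probe set 1422702_at did not pass for Rb KO against control villi (−0.20, adjusted p = 0.176). Nor did it for DKO against Rb KO villi (0.26, adjusted p = 0.155). The probe set 1430984_at of Azin1 had villus means of 9.09 ± 0.20 (control), 8.31 ± 0.46 (Rb KO) and 8.95 ± 0.17 (DKO). In Rb KO villi it fell by 0.78 ± 0.18 (adjusted p = 0.00317), and between Rb KO and DKO it rose by 0.63 ± 0.18 (adjusted p = 0.0386). The genes most like Azin1 were 5031439G07Rik (r = 0.848), Smdt1 (0.828), of the mitochondrial calcium uniporter, Emp1 (0.815), Sccpdh (0.813) and Cmpk1 (0.810), a nucleotide kinase.

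**Figure D2:**
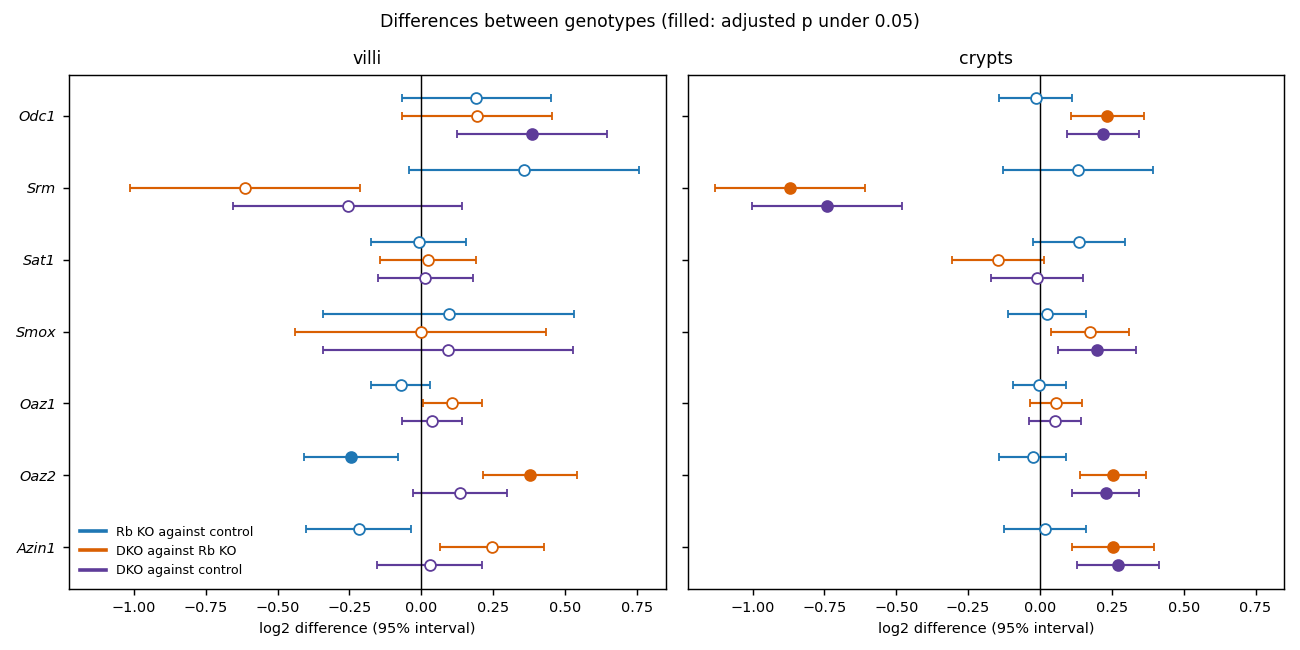
Log2 difference (x axis) with its 95% interval for each measured polyamine gene in villi (left) and crypts (right), for Rb KO against control (blue), DKO against Rb KO (orange) and DKO against control (purple), with filled points at an adjusted p under 0.05. In crypts the 4 filled orange points are Odc1, Oaz2 and Azin1, to the right of 0, and Srm, at −0.87, to the left.

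Counted over the list, 1 of 7 members fell and none rose in Rb KO villi, where 30.5% of all genes tested passed, 14.7% higher and 15.8% lower, and none passed in Rb KO crypts, where 10.3% of all genes did. None of the 7 in Rb KO crypts had an unadjusted p under 0.05 either, against 24% of all genes. From Rb KO to DKO 1 of 7 rose in villi, against 7.83% of all genes passing in either direction and 5.9% higher. In crypts 3 rose and 1 fell, against 12.4% of all genes passing, 5.17% higher and 7.22% lower, with a median difference of 0.17 in the list and 0.01 over all genes. From control to DKO 1 of 7 rose in villi, where 17.1% of all genes passed and 11.3% rose, and in crypts 4 rose and 1 fell, where 20.2% of all genes passed, 11% higher and 9.19% lower. The comparisons of a tissue share arrays, so their counts are not independent. The counts for DKO crypts lie above the share of all genes that passed, and those for Rb KO villi lie near or below it. The members were chosen with earlier results of these data known, so these counts describe the list and are not a test of it.

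The interaction tests asked whether a genotype difference was itself different in crypts and villi. No member passed for the loss of Rb, where 13.7% of all genes did, or for the loss of Myc on top of it, where 3.4% did, by limma. For the loss of Rb the unadjusted p was 0.0261 for Oaz2 (0.22 ± 0.09, adjusted p = 0.122) and 0.0416 for Azin1 (0.23 ± 0.11, adjusted p = 0.164), and for the loss of Myc 0 members were under 0.05. The pattern of Oaz2 and Azin1, low in Rb KO villi alone, was not shown to differ from crypts on the probe sets of highest level. On the Oaz2 probe set 1426764_at (0.40, adjusted p = 0.0209) and the Azin1 probe set 1430984_at (0.86, adjusted p = 0.00685) the Rb effect did differ between tissues. It did not on their remaining probe sets, Oaz2 1442541_at (−0.09, adjusted p = 0.696) and Azin1 1422702_at (0.27, adjusted p = 0.203).

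**Figure D3:**
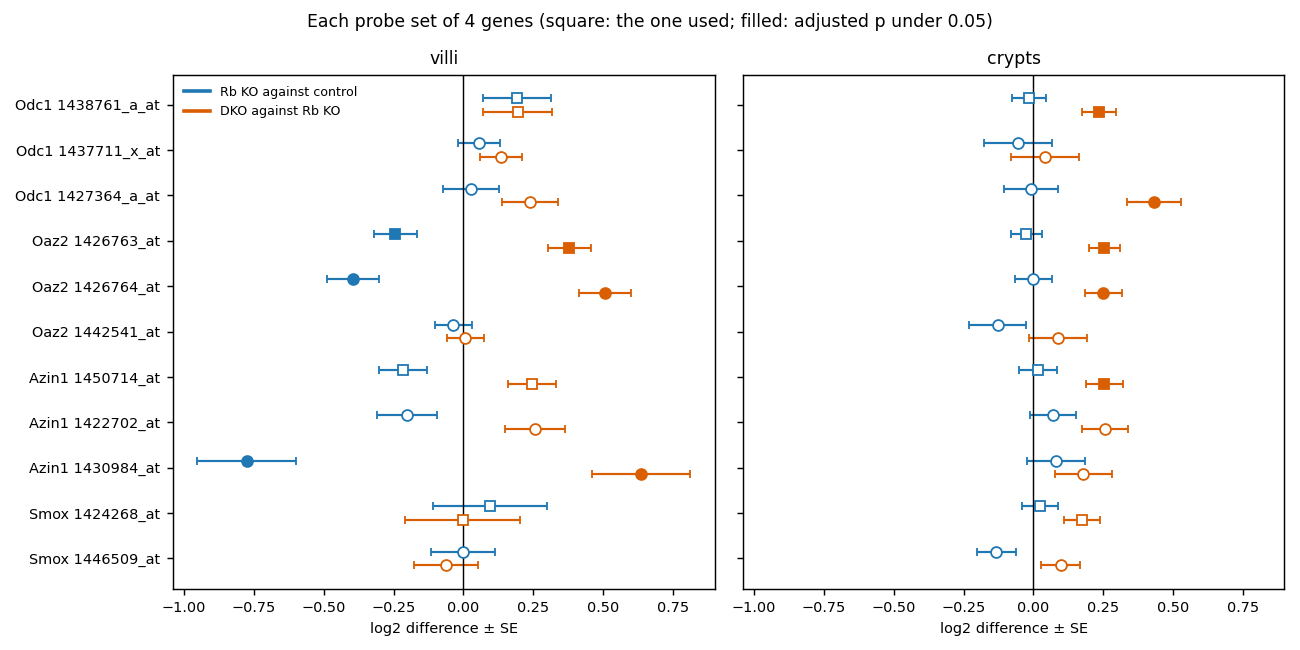
Log2 difference ± SE (x axis) for every probe set of Odc1, Oaz2, Azin1 and Smox in villi (left) and crypts (right), for Rb KO against control (blue) and DKO against Rb KO (orange), squares for the probe set used and filled symbols at an adjusted p under 0.05. In crypts the Odc1 probe set 1427364_a_at lies at 0.43 and 1437711_x_at at 0.04.

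Other readings moved with these groups. In crypts the crypt marker score was −0.170 ± 0.177 in Rb KO and 0.128 ± 0.145 in DKO, a difference of 0.298 (exact permutation p = 0.0159, adjusted p = 0.0714 over 18 tests), and with it as a covariate the 4 members called from Rb KO to DKO crypts still passed. The mean of 4 exocrine pancreas markers ranged from 8.79 to 10.3 in Rb KO and from 8.73 to 12.2 in DKO crypts, with 1 of 4 higher. That of 9 T cell markers ranged from 7.09 to 7.87 and from 7.50 to 7.90, with 1 of 9 higher. Also higher in DKO crypts were 3 of 9 crypt, 1 of 9 villus enterocyte, 1 of 4 B cell and 1 of 7 mesenchyme markers. Among all genes 5.17% were higher. In villi 7 of 9 T cell markers fell in Rb KO and 5 of 9 rose from Rb KO to DKO, the directions of Oaz2. Their mean ranged from 10.02 to 10.62 in control, from 9.47 to 10.09 in Rb KO and from 10.25 to 10.56 in DKO villi. Of 4 exocrine pancreas markers 1 fell in Rb KO villi and 2 rose from Rb KO to DKO villi, the same directions. From Rb KO to DKO villi 1 of 4 B cell markers and 1 of 7 mesenchyme markers also rose, against 5.9% of all genes. The mesenchyme marker was Bmp4, by 1.76. All other markers of that list had lower means in DKO, and the median difference of the list was −0.15. The GAPDH reading, the 3′ minus the 5′ probe set of that control transcript, had villus means of −0.139 ± 0.041 (control), −0.0514 ± 0.0438 (Rb KO) and −0.0950 ± 0.0169 (DKO) (Rb KO against control 0.0873, exact permutation p = 0.00794, the smallest these arrays allow, adjusted p = 0.0476 over 18 tests). The GAPDH reading also separated DKO from control villi (0.0437, exact permutation p = 0.00794, adjusted p = 0.0476), the comparison in which Odc1 passed. So did the clock index, at −0.727 ± 0.578 in control and 0.939 ± 0.803 in DKO villi with no overlap (difference 1.67, exact permutation p = 0.00794, adjusted p = 0.0476), and there 2 of 4 genes of its first list rose and 3 of 5 of its second fell. The GAPDH values of control villi likewise did not overlap those of Rb KO or DKO villi. Where groups do not overlap in a covariate, a fit cannot tell it and genotype apart. The part of the T cell, pancreas, B cell and mesenchyme markers in the results was not tested.

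The genes around the pathway were read from 5 lists with 31 measured members. The lists were chosen for their function but with earlier results of these data known, so their counts are descriptions and not tests. In Rb KO villi, against 30.5% of all genes, 4 of 31 rose and 7 fell. Those that rose were Ahcy, which clears the methyl-transfer product S-adenosylhomocysteine, by 1.09 ± 0.21, Apip, of the salvage of methylthioadenosine, the by-product of Srm and Sms, by 1.00 ± 0.12, the arginine transporter Slc7a1 by 0.95 ± 0.24 and the polyamine transporter Atp13a3 by 0.76 ± 0.23. Among those that fell were Asl, argininosuccinate lyase, by 0.45 ± 0.07, Aldh18a1, which starts proline and ornithine synthesis from glutamate, by 0.57 ± 0.13, and Slc47a1, an organic cation exporter, by 0.64 ± 0.13. Aoc1, diamine oxidase, which breaks down putrescine, fell from 13.70 to 13.33 in Rb KO villi (adjusted p = 0.0271) and from 12.96 in control to 12.55 in DKO crypts (adjusted p = 0.0142).

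For Ahcy, Apip, Slc7a1 and Atp13a3 the effect of Rb loss also differed between tissues by the interaction test, smaller in crypts by 1.03 (adjusted p = 0.00229), 0.66 (adjusted p = 0.00286), 0.98 (adjusted p = 0.0132) and 0.87 (adjusted p = 0.0181). From Rb KO to DKO 1 of the 31 rose in villi, Got1, by 0.45 (adjusted p = 0.0496), a share of 3.2% against 5.9% of all genes higher. In crypts 3 rose and 2 fell, against 5.17% of all genes higher and 7.22% lower. Oat, ornithine aminotransferase, rose by 0.31 ± 0.06, Aldh18a1 by 0.32 ± 0.09 and Apip by 0.61 ± 0.07, while Asl fell by 0.32 ± 0.07 and Mri1, of the same salvage route as Apip, by 0.33 ± 0.09. From control to DKO crypts 2 of the 31 rose and 9 fell, 29.0% lower against 9.19% of all genes, with Asl (−0.41 ± 0.07), Mri1 (−0.44 ± 0.09), Adi1 (−0.44 ± 0.12), of the same salvage route, and Slc7a1 (−0.27 ± 0.08) among those that fell and Apip and the antizyme gene Oaz3 (0.22 ± 0.06) those that rose. From control to DKO villi 2 rose and 5 fell, against 17.1% of all genes passing, and in Rb KO crypts 1 rose and 2 fell, against 10.3%. Apip rose in 5 of the 6 comparisons of genotypes. Of 4 genes of hypusine formation, the modification of Eif5a that uses spermidine, 1 passed in 1 comparison: Eif5a fell from control to DKO crypts by 0.13 ± 0.05 (adjusted p = 0.0479).

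**Figure D4:**
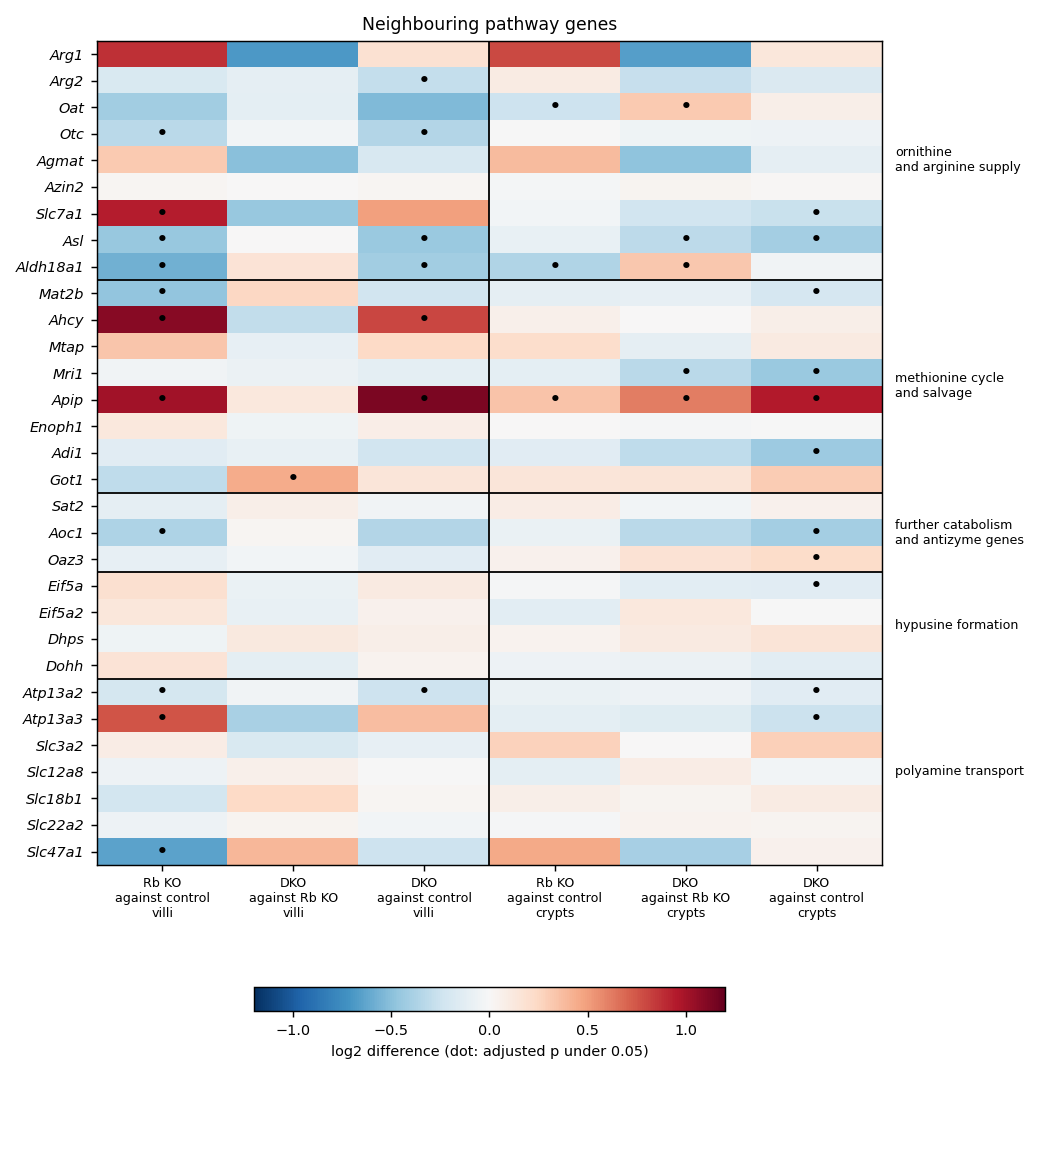
Log2 differences of 31 measured neighbouring pathway genes (rows, grouped by list) in the 6 comparisons of genotypes (columns), red higher and blue lower, with a dot at an adjusted p under 0.05. Apip carries a dot in 5 of the 6 columns.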

How the data were processed

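Total RNA was isolated with TRIzol and an RNeasy kit and labelled with biotin for arrays of 45101 probe sets, per the labels' protocols. The deposited table holds log2 values from 2.64 to 15.2, and how the authors normalized them is not given in the sources used here, nor are intensities on a linear scale, so background calls were not used. Of the probe sets 34958 carried 1 gene symbol in the platform annotation, 932 several and 9211 none, and 34754 matched a RefSeq gene of GRCm38.p6. A gene was read from its 1-symbol probe set of highest mean over the 30 arrays and tested where that mean exceeded the 30th percentile of all probe sets, 5.33. The 15 arrays of a tissue were fitted together in limma 3.58.1 (R 4.3.3) with no covariate, and the interaction in a fit of all 30. The Benjamini-Hochberg adjustment ran over all genes tested. Tested on simulated data with 14548 genes, the fit recovered 94% of genes changed 1.5-fold and 96% of those changed 2-fold for DKO against Rb KO crypts. For DKO against Rb KO villi it recovered 77% and 93%, and for the Rb interaction 67% and 92%. On the probe sets used, members other than Srm differed by less than 1.5-fold, and changes of that smaller size were not simulated.

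Villus and crypt arrays of the same number and genotype deviated together (r 0.246 to 0.560 over 15 pairs), and 15 of 15 pairs matched in sex by Xist, so the numbers were taken to pair them and an animal block was tried for the interaction. Arrays of the same number but different genotype did so unevenly (r −0.274 to 0.419 over 30 pairs, 13 of them above 0.1). The labels do not say that numbers pair genotypes, so the main fit had no such block and a block by number was tried. Whether some numbers share a batch across genotypes was not tested. The members and lists were chosen with earlier results of these data known. Outside the marker and clock lists, the genes named are the members, Rb1, Myc and pathway genes past the threshold. Of the pathway genes at most 4 of smallest p were named per list and comparison. The 5 genes of highest correlation are named for Odc1, Srm, Oaz2 and Azin1. Those of Smox, which also passed, are not. The alternatives tried were the mean of all probe sets, no filter, quantile normalization, a trended robust fit, a stricter threshold, covariates, 2 groups alone, blocks, other probe sets and arrays left out.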

Additional observations from a re-analysis of the deposited data

Results flagged for a closer look

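Single arrays stood apart from the other 4 of their group by Dixon's test at 4 of 54 combinations of gene and group, where chance gives about 1 in 20. Oaz2 was high in DKO villi 1, at 9.82 against 9.46 to 9.53. Smox was high in DKO villi 2, at 6.93 against 6.44 to 6.55. In DKO crypts 5 both Azin1, at 11.82 against 11.95 to 11.98, and Smox, at 7.49 against 7.71 to 7.76, were low. The effect of Rb loss differed between crypts and villi on a probe set of Azin1 (1430984_at, by 0.86 in log2 units, limma's adjusted p = 0.00685) and on one of Oaz2 (1426764_at, by 0.40, adjusted p = 0.0209), while on the probe sets of highest level of these genes the differences were 0.23 and 0.22 and did not pass. Nor did Azin1 1422702_at (0.27, adjusted p = 0.203) or Oaz2 1442541_at (−0.09, adjusted p = 0.696).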

How the results depend on the processing

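Each member result was set beside each alternative run for it, and the counts here are of such pairs. Where the result had passed, 232 pairs kept direction and call, 49 lost the call and 3 changed sign. Where it had not, 904 pairs kept direction and still did not pass, 24 passed and 83 changed sign. Some alternatives, such as the stricter threshold and no filter, leave the difference itself as it was and could not change its sign. Where a value changed, the cause was not tested. Srm in crypts, from Rb KO or control to DKO, kept its call under each alternative.

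The count of members called in Rb KO villi, 1, became 2 with the mean of all probe sets, sex or the GAPDH reading (with the last, Odc1 and Srm in place of Oaz2), 3 without controls 1 and 4, and 0 at an adjusted p of 0.01 or without Rb KO 4 and 5 (0 to 2 with 1 array left out). From Rb KO to DKO villi the count of 1 became 2 with the mean of all probe sets, quantile normalization, sex, the GAPDH reading or the replicate block by number, and 3 with the crypt marker score or the 2 groups alone (1 with each array left out). From control to DKO villi it became 0 at 0.01 (0 to 1). With the crypt marker score that count stayed 1 but the gene was Srm (−0.57) in place of Odc1. In crypts the count at 0.01 was 2 of the 4 from Rb KO to DKO (2 to 5, with 2 without Rb KO 2) and 3 of the 5 from control to DKO (4 to 5). With the mean of all probe sets 1 member, Azin1, passed the Rb interaction. The animal block changed no interaction call.

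The following signs turned. With quantile normalization, Sat1 in Rb KO against control villi (0.022) and DKO against Rb KO villi (−0.015) and Azin1 in Rb KO against control crypts (−0.010). With the clock index, Smox in Rb KO against control villi (−0.052), Sat1 in DKO against Rb KO villi (−0.015), Sat1 (−0.042) and Smox (−0.38) in DKO against control villi, Azin1 in Rb KO against control crypts (−0.017), Smox in the Rb interaction (0.091) and Azin1 in the Myc interaction (−0.0035). With the GAPDH reading, Smox in Rb KO against control (−0.21) and DKO against Rb KO villi (0.15), Sat1 (−0.0079) and Smox (−0.060) in DKO against control villi, Smox in the Rb interaction (0.070), and Srm (0.015) and Azin1 (−0.019) in the Myc interaction. With the crypt marker score, Smox in DKO against Rb KO villi (0.021), Azin1 in Rb KO against control crypts (−0.074), Sat1 in DKO against control crypts (0.0043) and Srm in the Rb interaction (0.081). With the mean of all probe sets, Azin1 in DKO against control villi (−0.019), Smox in Rb KO against control crypts (−0.055) and Azin1 in the Myc interaction (−0.15). Without controls 1 and 4, Srm (0.025), Oaz1 (−0.014) and Azin1 (−0.087) in DKO against control villi and Azin1 in Rb KO against control crypts (−0.045). Azin1 in those crypts also turned with sex (−0.0045) and without Rb KO 4 and 5 (−0.074), and Odc1 in the Myc interaction without Rb KO 4 and 5 (−0.033).

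On other probe sets, Smox 1446509_at turned in Rb KO against control villi (−0.00033) and crypts (−0.13) and in DKO against control villi (−0.063) and crypts (−0.036). Oaz2 1442541_at turned in DKO against control villi (−0.030) and crypts (−0.040) and in the Rb (−0.091) and Myc (0.081) interactions. Azin1 1430984_at turned in DKO against control villi (−0.14) and the Myc interaction (−0.46), Azin1 1422702_at in the latter (−0.00011), and Odc1 1437711_x_at in DKO against control crypts (−0.013) and the Myc interaction (−0.092).

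With 1 array left out, values spanned 0 in Rb KO against control villi for Sat1 (−0.051 to 0.031) and Smox (−0.056 to 0.27), in DKO against Rb KO villi for Smox (−0.18 to 0.15) and Sat1 (−0.027 to 0.065), and in DKO against control villi for Azin1 (−0.051 to 0.076) and Sat1 (−0.037 to 0.051). In Rb KO against control crypts they did for Azin1 (−0.028 to 0.047), Smox (−0.0036 to 0.058), Oaz1 (−0.017 to 0.017), Oaz2 (−0.054 to 0.0071) and Odc1 (−0.062 to 0.014), in DKO against control crypts for Sat1 (−0.043 to 0.038), and in the interactions for Smox (Rb, −0.24 to 0.067), Azin1 (Myc, −0.041 to 0.068) and Odc1 (Myc, −0.0045 to 0.10).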
